A study of Homo sapiens with 18 samples.

Results

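Ribosome footprints of 2 arrested states of the same cells were compared, namely cells treated with inflachromene (ICM) and cells that had reached replicative senescence by passaging (old). The 6 Ribo-seq libraries, 3 ICM and 3 old, were picked by their sample titles from 18 libraries. The question was which proteins the arrested cells synthesise at different rates. All cells were IMR90, diploid fibroblasts of human fetal lung. The ICM group was low passage and received inflachromene, a compound known to target HMGB1 and HMGB2, which are abundant DNA-bending proteins of chromatin. The old group was at high passage, senescent and without the compound. The 3 young footprint libraries, from low-passage cells that still proliferated, entered the fit and are given as a reference, and the 6 ICM and old mRNA-seq libraries came from the same lysates. Per the study's methods the replicates of a condition were cultured independently, all from the IMR90 line, so p-values measure the spread between cultures of this line and not between donors. Per the study, the senescence footprints were generated before the ICM footprints, so the occasion and the condition cannot be told apart.

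Ribosome profiling sequences the stretches of mRNA that ribosomes shield from nuclease, so reads in a coding sequence (CDS) follow how many ribosomes were making that protein. Senescent fibroblasts are known for a stable arrest, for secretion of matrix, protease and growth factor proteins, and for a flat, contractile shape. Chemical stress on thiols is known to free the transcription factor NRF2 from its inhibitor KEAP1, after which NRF2 drives enzymes that detoxify electrophiles, make glutathione and supply NADPH. Contractile genes of fibroblasts and smooth muscle are known targets of the serum response factor, which binds a CArG box. Ferritin synthesis is a textbook case of control at the ribosome, since iron regulatory proteins bind a hairpin in the 5′ UTR of its mRNAs when iron is scarce.

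Depth was uneven. The ICM libraries held 224982, 78939 and 46170 CDS reads, and the old libraries 1672649, 54587 and 583669. Reads in the CDS made up 78.6% to 88.2% of an ICM library, 77.8% and 54.7% of old replicates 1 and 3, and 15.0% of old replicate 2, where 45.2% lay in non-coding RNA. The young libraries held 54323, 684957 and 1718431 CDS reads. In young replicate 1 only 34.4% of reads lay in the CDS and 52.5% in non-coding RNA. In what follows a footprint level is given in CPM, CDS reads scaled to the CDS total of the library, in the order of replicates 1, 2 and 3. At this depth 1 read stood for 21.7 CPM in ICM replicate 3, so that low levels in ICM rest on a few reads.

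Levels of the genes that differed most between ICM and old varied between replicates. The 12 genes named below as the largest rises in ICM, an example chosen by this contrast, summed to 138 and 132 CPM in old replicates 1 and 3 and to 1117 CPM in old replicate 2, which is 14.6% of the ICM mean. In young they summed to 1105, 231 and 224 CPM, so young replicate 1 was raised as well. The 12 largest falls summed to 680 and 494 CPM in ICM replicates 1 and 2 and to 1776 CPM in ICM replicate 3, or 14.8% of the old mean. In the mRNA-seq of the same lysates the rises summed to 53.8 ± 5.43 CPM in old and the falls to 508 ± 4.95 CPM in ICM (SD, n = 3 each), and no such library stood out. Of 166 called genes picked by the naming rule, 153 kept their call without old replicate 2 and ICM replicate 3, and where a gene below lost it in that fit, this is said beside the gene.

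The libraries were checked against markers. All 11 fibroblast markers had footprints, and their sum ran from 18300 to 29600 CPM in ICM and from 30500 to 39900 CPM in old. Of 10 that were tested, DCN rose and 6 fell, COL1A1 and VIM among them, so the marker sum moved with the matrix results below. Epithelial markers summed to 0 CPM in ICM and to at most 12 CPM in old, with no read for CDH1, KRT5 and SFTPC. Endothelial markers reached 44.4 CPM in ICM and 202 CPM in old, nearly all of it TEK, and PECAM1 had no read. Blood cell markers reached 53.3 CPM at most, and PTPRC, CD3E, HBA1 and ITGAM had no read.

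In the edgeR fit 623 of 4643 tested genes (13.4%) passed an adjusted p of 0.05, of which 269 (5.79% of those tested) were higher in ICM and 354 (7.62%) lower. A gene that passed is said below to have risen or fallen in ICM relative to old. Counts of list members below are to be read beside these shares, 5.79% higher and 7.62% lower. Lysates held bulk cells, so fewer cells that make a protein and less synthesis per cell cannot be told apart, and levels are relative to all CDS footprints of a library. The median absolute log2 change was 1.29 among rises and 1.48 among falls, and the median of all tested genes was -0.02. Of the called genes, 494 had no overlap between the ICM and the old libraries, as had 1070 of all tested genes (23.0%). Without old replicate 2 and ICM replicate 3 the count was 996, with 328 higher and 668 lower, over 8322 genes that then passed the filter.

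**Figure D1:**
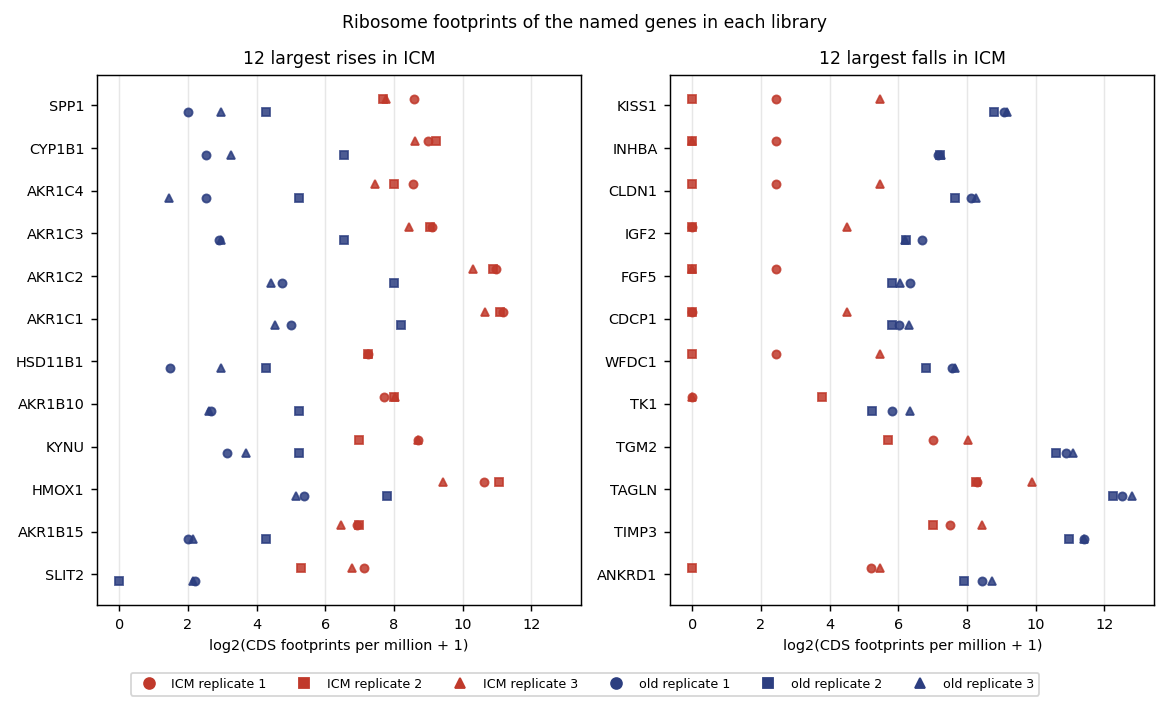
Footprint level, as log2 of CPM plus 1, of the 12 genes with the largest rise (left) and the 12 with the largest fall (right) among called genes without overlap. Each point is 1 library, red for ICM and blue for old, and in the left panel old replicate 2 (blue squares) lies above the other old libraries for most genes, as at 91.6 CPM for CYP1B1 against 4.78 and 8.57 CPM.

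The largest rises in ICM were in enzymes that reduce carbonyls and handle steroids and foreign compounds. The aldo-keto reductases AKR1C1 to AKR1C4, which reduce steroids and reactive aldehydes, led with SPP1 and CYP1B1. AKR1C1 was at 2302, 2192 and 1603 CPM in ICM and at 31.1, 293 and 22.3 CPM in old, a log2 change of 5.61 (SE 0.40, adjusted p = 2.67e-13). These genes are near-identical in sequence and reads may be shared between them, so their sum is the safer value. Summed over the 4 genes, ICM held 5245, 4865 and 3379 CPM and old 68.2, 678 and 51.4 CPM. Every ICM library lay above every old one, and the ratio of the means was 16.9. The old libraries differed among themselves, since old replicate 2 held 15.1% of the ICM mean and the others 1.33% on average. Their kin AKR1B10 and AKR1B15, also uncertain as single genes, summed to 329, 380 and 347 CPM in ICM and to 8.37, 55.0 and 8.57 CPM in old.

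The other leading rises had varied functions. CYP1B1, a cytochrome P450 that oxidises aromatic compounds and oestrogens, was at 507, 595 and 389.9 CPM in ICM and 4.78, 91.6 and 8.57 CPM in old (log2 change 5.81, SE 0.39, adjusted p = 1.01e-13). SPP1, the secreted phosphoprotein osteopontin, was at 382, 203 and 217 CPM in ICM and at 2.99, 18.3 and 6.85 CPM in old (log2 change 5.88, SE 0.49). HSD11B1, which regenerates active cortisol, stood at 151 to 152 CPM in ICM and at 1.79 to 18.3 CPM in old, with 53 and 8 reads in all. These genes separated the groups in every library. KYNU, which cleaves kynurenine in tryptophan breakdown, was at 418, 127 and 412 CPM in ICM and 7.77, 36.6 and 11.99 CPM in old. HMOX1, the haem oxygenase that releases iron, was at 1582, 2116 and 693 CPM in ICM against 40.7, 219.8 and 34.3 CPM in old (log2 change 4.92, SE 0.34). SLIT2, a secreted guidance protein, was at 138, 38.0 and 108 CPM in ICM and at 3.59, 0 and 3.43 CPM in old, and its level in young was 41.3 to 111 CPM.

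NRF2 target enzymes formed the list with the highest share of rises. Of 43 members 39 were tested, 31 rose and 1 fell, with a median log2 change of 1.65 beside -0.02 for all tested genes and 5.79% of them called higher. Without old replicate 2 and ICM replicate 3 the counts were 30 and 1. The list includes the AKR1C genes, AKR1B10 and HMOX1 above, and the members that follow were chosen after their values were seen. NQO1, the quinone reductase, was at 2418, 2787 and 2339 CPM in ICM and 139, 531 and 197 CPM in old (log2 change 3.55, SE 0.25). GCLM, the modifier subunit of the enzyme that starts glutathione synthesis, was at 711, 519 and 498 CPM in ICM and 103, 109.9 and 73.7 CPM in old (log2 change 2.59, SE 0.23). EPHX1, which opens epoxides, had a log2 change of 3.35 and SRXN1, which repairs peroxiredoxins, of 2.78. The NADPH-producing enzymes PGD and ME1 had log2 changes of 2.62 and 1.64, and the cystine importer SLC7A11 had a log2 change of 2.12. The fall was in PRDX6, a peroxiredoxin, at 876, 849 and 1126 CPM in ICM and 1656, 1887 and 1833 CPM in old.

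Of the listed enzymes 32 had a promoter window in RefSeq (GRCh38.p14), and 7 of them held the core of the antioxidant response element, the site NRF2 is known to bind. The window ran from 250 bases before to 50 bases after the gene start, both strands were searched for TGACNNNGC, and the core can overlap the AP-1 site TGACTCA. The share was 21.9%, beside 16.3% of all 3889 tested genes with a window (633 genes), 18.4% of those that rose (40 of 217) and 13.6% of those that fell (39 of 287). The sites of 4 of these enzymes are shown because this list had the highest share of rises. They were taken only from called members. CBR1 and PGD, also called, held a core that is not shown, and TXNRD1 and ME1 each held a further core that is not shown. The core is in capitals with 8 bases on each side, on the strand of the gene. A match describes letters and not a used site. GCLM lies at chr1:93909448-93909472 on the minus strand and reads the core on the opposite strand, TXNRD1 at chr12:104215672-104215696 on the plus strand, ME1 at chr6:83431172-83431196 on the minus strand and GSTP1 at chr11:67583738-67583762 on the plus strand.
GCLM: cgatttctGCTTAGTCAttgtcttc
TXNRD1: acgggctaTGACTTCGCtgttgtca
ME1: tcctgccaTGACTCAGCgcttctcg
GSTP1: cggcgccgTGACTCAGCactggggc

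All 4 genes rose in ICM, which the choice among called members largely fixed, and the amounts were unequal. TXNRD1, thioredoxin reductase, was at 3089, 3572 and 1971 CPM in ICM and 960, 1466 and 1062 CPM in old. GSTP1, a glutathione transferase, was at 1160, 1469 and 975 CPM in ICM and 709, 696 and 762 CPM in old, a log2 change of 0.62 (SE 0.18, adjusted p = 0.0187). ME1, malic enzyme, was at 471, 583 and 260 CPM in ICM and 147, 128 and 119.9 CPM in old. None of the 3 overlapped between the groups.

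Other lists of metabolism and clearance held some rises, beside 5.79% of all tested genes called higher and 7.62% called lower. In xenobiotic metabolism and transport 6 of 13 tested genes rose and 1, ALDH1B1, fell, a call that held in 6 of 13 alternatives. Beside CYP1B1 the rises included NQO2 (log2 change 2.87), CYP26B1 (2.59), which degrades retinoic acid, and AHR (2.03), the receptor for aromatic compounds. AHR was at 169, 304 and 195 CPM in ICM and 44.8, 36.6 and 51.4 CPM in old. CYP26B1 had 213 and 177 CPM in ICM replicates 1 and 2 and no read in ICM replicate 3, so the groups overlapped. SQSTM1, the autophagy receptor p62, was at 6987, 6676 and 4678 CPM in ICM and 1271, 1392 and 1189 CPM in old (log2 change 2.17, SE 0.19). SQSTM1 is also on the NRF2 list. Of 16 tested autophagy genes ATG13 rose as well, and the 1 fall was RB1CC1, which had 3 reads in ICM and 100 in old (pooled rate in old over ICM 5.05, 95% interval 1.68 to 24.9, counting error only). Of 39 lysosomal proteins 5 rose and 1, ATP6AP1, fell. GLA, α-galactosidase, had a log2 change of 2.01, NPC1, which exports cholesterol, of 1.58 and the protease CTSL of 1.28.

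Lipid and sugar lists also held some rises, beside the same 5.79% higher and 7.62% lower of all tested genes. Of 24 genes of cholesterol and fatty acid synthesis 5 rose and none fell, 4 on the fatty acid side and HMGCS1 of the cholesterol side. FADS1 and FADS2, the desaturases of polyunsaturated fatty acids, had log2 changes of 2.63 (SE 0.31) and 1.84 (SE 0.25), SCD, which makes monounsaturated fatty acids, 1.11 and FASN, fatty acid synthase, 0.93. FADS1 was at 382, 532 and 130 CPM in ICM and 49.0, 36.6 and 70.3 CPM in old. In glycolysis and glucose uptake 4 of 22 genes rose. GAPDH, the gene with most footprints in ICM, took 1.86%, 1.85% and 1.40% of CDS footprints there and 1.04%, 1.10% and 1.05% in old. LDHB (0.98), PFKFB3 (1.07) and the glucose carrier SLC2A1 (0.66) rose as well, while the lactate exporter SLC16A3 fell by 1.47 on the log2 scale.

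Prostaglandin, complement and cytokine lists were small at this depth. PTGR1, which inactivates leukotriene B4 and prostaglandins, rose from 194, 329.7 and 207 CPM in old to 2271, 1964 and 1213 CPM in ICM (log2 change 3.03, SE 0.22), and the prostaglandin receptor PTGER4 rose on 18 and 29 reads (log2 change 1.94, adjusted p = 0.0435). PTGER4 kept its call in 1 of 9 alternatives, and without old replicate 2 and ICM replicate 3 it was at 1.69 (adjusted p = 0.0846). Of 9 complement genes 3 rose, CLU (2.02) and C1R (0.95) among them, and CD59, a membrane inhibitor of complement, fell by 1.84. C1R lost its call without old replicate 2 and ICM replicate 3 (log2 change 0.65, adjusted p = 0.12), which left 2 rises, and it kept the call in 6 of 14 alternatives. CLU, the secreted chaperone clusterin, was at 3027, 2318 and 2166 CPM in ICM and 561, 696 and 559 CPM in old, a clear gap. Of 30 cytokines and chemokines only 7 passed the filter, so most could not be compared. Of these, TNFAIP6 (3.12), GDF15 (0.87) and MIF (0.78) rose, and PTX3 (-2.46) and IL32 (-2.04) fell. IL32 kept its call in 7 of 13 alternatives. GDF15, a stress cytokine, was at 440, 735 and 477 CPM in ICM and 282, 147 and 281 CPM in old.

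The largest falls in ICM were in proteins of varied function, from secreted signals to a thymidine kinase. KISS1, the precursor of kisspeptin, was at 538, 439.7 and 572 CPM in old and had 3 reads in the 3 ICM libraries (log2 change -6.04, SE 0.48, adjusted p = 2.65e-12). The pooled rate was 63.5 times higher in old (95% interval 21.7 to 308, exact, counting error only). INHBA, the subunit of activin A, was at 142, 147 and 151 CPM in old with 1 read in ICM (pooled ratio 50.4, 8.99 to 2000). CLDN1, a tight junction protein, was at 276, 202 and 305 CPM in old with 3 reads in ICM (pooled ratio 32.9, 11.2 to 160). Reads this few fix the direction better than the size. The growth factors IGF2 and FGF5 and the thymidine kinase TK1 had 1 read each in ICM and pooled ratios of 33.0 (5.87 to 1310), 26.7 (4.72 to 1060) and 21.5 (3.80 to 856). CDCP1, with 1 read, and WFDC1, with 3, had pooled ratios of 23.8 (4.21 to 945) and 22.2 (7.54 to 108).

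The deeper members of the largest falls gave firmer sizes. TAGLN, the actin-binding protein transgelin, was at 311, 304 and 953 CPM in ICM and 5815, 4873 and 7210 CPM in old (log2 change -3.88, SE 0.25, adjusted p = 7.10e-14). TGM2, which crosslinks proteins, was at 129, 50.7 and 260 CPM in ICM and 1878, 1557 and 2155 CPM in old (log2 change -3.98, SE 0.27). TIMP3, the matrix-bound inhibitor of metalloproteinases, was at 182, 127 and 347 CPM in ICM and 2732, 2015 and 2707 CPM in old (log2 change -3.80, SE 0.25). ICM replicate 3 was the highest ICM library for each of the 3, and still below every old library. ANKRD1, a nuclear target of YAP and TAZ, was at 35.6, 0 and 43.3 CPM in ICM and 347, 238 and 422 CPM in old. Summed over the 12 largest falls, the mean was 983 CPM in ICM, 4088 in young and 12010 in old. The sum hides differences between genes. KISS1 had a mean of 7.29 CPM in young and 15.9 in ICM, and WFDC1 of 23.3 in young and 15.9 in ICM. TK1 was higher in young than in old, at 143 and 57.6 CPM, and FGF5 was alike in both, at 64.9 and 66.9 CPM.

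Actin and contractile proteins fell as a group. All 44 members were tested, 28 fell and none rose, with a median log2 change of -0.82 beside 7.62% of all tested genes called lower. Without old replicate 2 and ICM replicate 3 the count was 35. CNN1, calponin, was at 35.6, 25.3 and 43.3 CPM in ICM and 286, 238 and 339 CPM in old (log2 change -3.25, SE 0.37), and CALD1, caldesmon, at 307, 355 and 607 CPM in ICM and 1822, 1722 and 1919 CPM in old (log2 change -2.38). The smooth muscle actins ACTA2 and ACTG2, which are near-identical, summed to 618, 595 and 1646 CPM in ICM and 3402, 2949 and 3934 CPM in old. The cytoplasmic actins ACTB and ACTG1 summed to 6436, 6891 and 7689 CPM in ICM and 8046, 8262 and 7775 CPM in old, a ratio of 0.873. TPM1, a tropomyosin chosen after its values were seen, was at 511, 443 and 845 CPM in ICM and 2520, 2070 and 2693 CPM in old. All 5 smooth muscle markers, MYH11, DES, SMTN, ACTG2 and CNN1, fell, and their sum was 494 to 1430 CPM in ICM and 2450 to 3160 CPM in old.

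Of 41 contractile genes with a window 6 (14.6%) held a CArG box, searched on both strands, beside 1.29% of all tested genes with a window (50 genes), 1.84% of those that rose (4) and 4.18% of those that fell (12). The boxes of ACTG2 and MYLK, which fell, are shown with the box in capitals and 8 bases on each side. TPM4, not shown, also held a box and fell (log2 change -0.58). The other contractile genes with a box were not called. ACTG2 has both of its boxes on the plus strand, at chr2:73892890-73892915 and chr2:73892927-73892952, and MYLK has its box at chr3:123620625-123620650 on the minus strand (GRCh38.p14, RefSeq).
ACTG2, first box: aaaaaccaCCTTATATGGtaatattg
ACTG2, second box: tcagctggCCTTTTTAGGgactttgt
MYLK: aaaccatcCCTTTTATGGgagttgaa

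ACTG2 was at 382, 266 and 1191 CPM in ICM and 1988, 1704 and 2248 CPM in old (log2 change -2.07, SE 0.27, adjusted p = 2.41e-07). MYLK, the kinase that switches on smooth muscle myosin, was at 182, 165 and 628 CPM in ICM and 518, 348 and 500 CPM in old (log2 change -1.04, SE 0.29, adjusted p = 0.0121). For MYLK the highest ICM value, that of replicate 3, lay above all old values, so its groups overlapped, and it was chosen here for its promoter.

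The cytoskeleton beyond actin changed in both directions. Of 19 tubulins and intermediate filament genes 2 rose and 4 fell. The neural filament protein NES fell from 349.7, 476 and 511 CPM in old to 31.1, 76.0 and 0 CPM in ICM, KRT18 fell by 2.27 and VIM, vimentin, by 0.94 on the log2 scale. TUBA4A, an α-tubulin that is uncertain as a single gene, rose to 147, 88.7 and 563 CPM from 36.6 to 42.8 CPM. Integrins and other adhesion proteins gave 14 falls and 3 rises among 33 genes, with a median of -0.67. The laminin-binding subunit ITGA3 fell by 2.18, ICAM1 by 2.12, and MCAM went from 293, 91.6 and 229.6 CPM in old to 66.7, 0 and 21.7 CPM in ICM, while the cadherins CDH6 (0.99) and CDH11 (0.97) and the integrin subunit ITGAV (0.72) rose. ITGAV lost its call without old replicate 2 and ICM replicate 3.

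**Figure D2:**
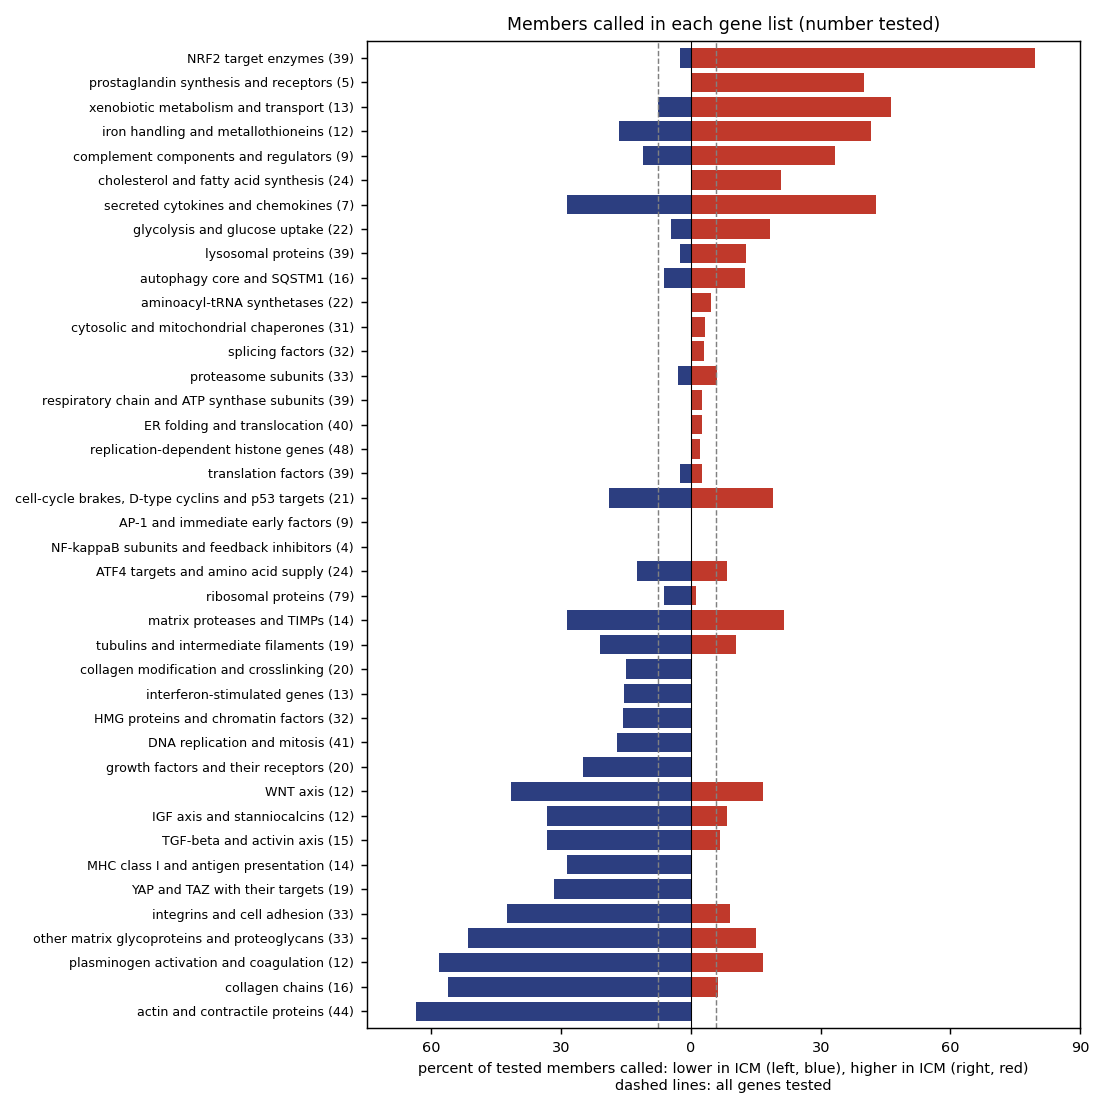
Percent of the tested members of 40 gene lists that were called lower (blue, left) or higher (red, right) in ICM than in old, with the number tested in brackets. The dashed lines mark the 7.62% lower and 5.79% higher of all tested genes, and NRF2 target enzymes (31 of 39 higher) and actin and contractile proteins (28 of 44 lower) lie at the ends.

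Matrix protein lists held more falls than rises. Of 16 collagen chains 9 fell and 1 rose, with a median log2 change of -0.76. Collagen chains took 2.13%, 2.15% and 3.87% of CDS footprints in ICM and 4.67%, 4.27% and 3.56% in old. These shares overlapped, since ICM replicate 3 lay above old replicate 3 (exact two-sided permutation p = 0.2). COL1A1, the main fibrillar chain, was at 3583, 3623 and 8989 CPM in ICM and 17030, 15100 and 11390 CPM in old (log2 change -1.58, SE 0.21), so ICM replicate 3 lay far above the other ICM libraries. COL5A1 fell by 1.86 and the basement membrane chain COL4A1 by 1.35. COL12A1, which sits on the surface of fibrils, rose to 2720, 3332 and 3465 CPM from 1354, 1484 and 1540 CPM. Among 20 genes that modify or crosslink collagen 3 fell, LOXL2 (-1.48), PLOD1 (-1.18) and P4HA2 (-0.74).

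Among 33 other matrix glycoproteins and proteoglycans 17 fell and 5 rose, with a median of -0.71. THBS1, thrombospondin, was at 2471, 2318 and 2642 CPM in ICM and 9816, 8903 and 11060 CPM in old (log2 change -2.12, SE 0.16, adjusted p = 1.05e-12). VCAN, a large proteoglycan, fell by 2.88, LTBP3, which tethers latent TGF-β, by 3.05, and LTBP2, of the same family, by 3.13. NID2, a linker of basement membranes, rose to 3187, 3433 and 3400 CPM in ICM from 460, 641 and 502 CPM in old (adjusted p = 8.08e-14). POSTN, periostin, was at 227, 177 and 325 CPM in ICM, 16.1, 73.3 and 41.1 CPM in old and 460, 861 and 955 CPM in young. So ICM stood between young and old for POSTN, in every library.

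Enzymes that cut the matrix were divided. Among 14 matrix proteases and TIMPs 3 rose and 4 fell. MMP3, stromelysin, was at 329, 253 and 86.6 CPM in ICM and 9.57, 0 and 13.7 CPM in old (log2 change 4.49, SE 0.46). MMP1, collagenase, rose by 1.18 and ADAMTS1 by 0.93. The inhibitors TIMP3 and TIMP2 fell by 3.80 and 0.81, and the membrane protease MMP14 by 1.23. In plasminogen activation and coagulation 7 of 12 genes fell and 2 rose, with a median of -1.02. The activators PLAT and PLAU fell by 1.44 and 1.34, the PLAU receptor PLAUR by 2.27 and the inhibitor SERPINE2 by 2.05, so both arms of the system fell. PLAT was at 765, 1013 and 866 CPM in ICM and 2396, 1484 and 2424 CPM in old. TFPI and TFPI2, inhibitors of the tissue factor pathway, rose by 1.64 and 1.00.

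Growth factor and morphogen lists held more falls than rises. IGF-binding proteins are secreted carriers of insulin-like growth factors and often mark senescent fibroblasts. IGFBP7 was at 436, 494 and 628 CPM in ICM and 3878, 2968 and 3749 CPM in old (log2 change -2.97, SE 0.20), IGFBP3 fell by 2.29 and IGFBP2 by 2.14. For IGFBP7 and IGFBP3 the ICM libraries lay near the young ones, at 545 to 699.5 and 381 to 626 CPM. The list of 12 tested IGF genes gave 4 falls, with IGF2, and 1 rise, IGF2R (0.56), which lost its call without old replicate 2 and ICM replicate 3. In the TGF-β and activin axis 5 of 15 fell, INHBA, its antagonist FST (-1.55), the ligand TGFB2 (-0.99), the receptor TGFBR2 (-0.89) and FSTL1 (-0.57). TGFBR1, the other receptor chain, rose by 1.13 on 42 reads in ICM, a call lost without old replicate 2 and ICM replicate 3.

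In the WNT axis 5 of 12 fell and 2 rose. WNT16 was at 74.7, 109.9 and 61.7 CPM in old with 3 reads in ICM (pooled ratio 8.43, 2.84 to 41.3), the secreted inhibitor SFRP1 fell by 3.09, WNT5B by 1.64 and DKK3 by 1.21. The receptor ROR1 (2.09) and APC (1.61), which marks β-catenin for decay, rose. Of 20 growth factors and receptors 5 fell and none rose, FGF5 and PDGFRA (-1.60), AXL (-1.09) and MET (-1.32) among them. MET kept its call in 6 of 13 alternatives. Of 19 tested genes of the YAP and TAZ list 6 fell, ANKRD1, AXL and GADD45B among them, and none rose. GADD45B had 2 reads in ICM and 129 in old (pooled ratio 9.77, 2.65 to 81.5).

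Antigen presentation and interferon genes were lower where they passed. Of 14 MHC class I genes 4 fell and none rose. HLA-B was at 147, 101 and 217 CPM in ICM and 416, 439.7 and 399 CPM in old (log2 change -1.61), HLA-C fell by 1.24, TAPBP by 1.01 and B2M, the shared light chain, by 0.60. The call of TAPBP was at the threshold (adjusted p = 0.0468), held in 4 of 13 alternatives and was lost without old replicate 2 and ICM replicate 3 (log2 change -0.99, adjusted p = 0.0551). HLA genes are alike in sequence and uncertain as single genes. Of 13 interferon-stimulated genes IFI6 fell by 1.95 and DDX58, the sensor RIG-I, by 1.88, and none rose, beside 3 falls and 1 rise without old replicate 2 and ICM replicate 3. In edgeR no gene passed among the 4 tested NF-κB subunits and inhibitors, where 0 had an unadjusted p under 0.05, or among 9 AP-1 and immediate early factors, where 2 had. The NF-κB list has 16 members, and the 4 tested had a median log2 change of -0.68, so this does not show that the states are alike. In the matched mRNA 11 of the 16 were lower in ICM and 1 higher, beside 4289 lower and 4049 higher of all 13173 genes tested there. Without old replicate 2 and ICM replicate 3 the AP-1 list gave 1 rise and 1 fall.

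The genes of the arrest itself were compared by name. CDKN1A, the inhibitor p21, was at 1645, 1419 and 1949 CPM in ICM and 856, 623 and 612 CPM in old, a rise of 1.08 on the log2 scale (SE 0.20, adjusted p = 0.000118). CDKN2A, which encodes p16 and p14ARF, was at 102, 12.7 and 86.6 CPM in ICM and 166, 73.3 and 142 CPM in old (log2 change -1.06, SE 0.37, adjusted p = 0.0493). The groups of CDKN2A overlapped and its call sits at the threshold. Of 21 cell-cycle brakes, D-type cyclins and p53 targets 4 rose and 4 fell. CCND2, cyclin D2, fell from 522, 476 and 795 CPM to 57.8, 50.7 and 43.3 CPM (log2 change -3.63, SE 0.33), while CCND1 fell by 0.86. The p53 targets MDM2 (1.20), PLK2 (1.33) and XPC (1.58) rose, and the death receptor TNFRSF10B fell by 0.88, a call lost without old replicate 2 and ICM replicate 3.

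Targets of the compound and lamin B1 did not pass the test. HMGB1 was at 84.5, 152 and 195 CPM in ICM and 133, 165 and 95.9 CPM in old (log2 change -0.15, SE 0.32, adjusted p = 0.82), and its sign depended on the libraries used. HMGB2 had 3 reads in ICM and 52 in old (log2 change -1.45, SE 0.93, adjusted p = 0.343), and LMNB1 2 and 33 reads (log2 change -1.43, SE 1.05). In young the levels were 362 to 479 CPM for HMGB1, 55.2 to 178 CPM for HMGB2 and 92.0 to 157 CPM for LMNB1. A footprint difference between ICM and old in HMGB2 or LMNB1 was not detectable at this depth, which does not show that the states are alike. Without old replicate 2 and ICM replicate 3 the log2 change was -2.98 for HMGB2 (adjusted p = 0.0835) and -2.31 for LMNB1 (adjusted p = 0.253). In the mRNA of the matched lysates both were lower in ICM, HMGB2 with a log2 change of -2.01 (adjusted p = 3.66e-12) and LMNB1 with one of -4.14 (adjusted p = 2.94e-12). Of 32 HMG and chromatin genes 5 fell and none rose, HMGA2 (-3.09, on 4 reads in ICM), HMGA1 (-1.83), DNMT1 (-1.87) and LMNB2 (-1.24) among them.

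DNA replication and mitosis genes were low in both states. Of 41 tested 7 fell and none rose, with a median of -0.82. STMN1, which destabilises microtubules, was at 40.0, 12.7 and 43.3 CPM in ICM and 139, 183 and 177 CPM in old (log2 change -2.31, SE 0.41). UHRF1 and MCM5, which copy DNA methylation and unwind DNA, had 2 reads each in ICM (pooled ratios 8.33, 2.25 to 69.7, and 7.27, 1.96 to 60.9). The list took 0.0773%, 0.108% and 0.277% of footprints in ICM, 0.172%, 0.224% and 0.213% in old and 0.585% to 0.688% in young. ICM replicate 3 alone lay above the old libraries, and without it and old replicate 2 the list gave 13 falls with a median of -1.69.

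Few genes of the housekeeping machinery passed. Of 79 ribosomal proteins 1 rose and 5 fell, of 39 translation factors 1 rose and 1 fell, and of 33 proteasome subunits 2 rose and 1 fell. Of 40 genes of ER folding, 31 chaperones, 39 respiratory chain subunits, 32 splicing factors and 22 aminoacyl-tRNA synthetases 1 rose each and none fell. These shares are below or near the 5.79% and 7.62% of all genes. More of these genes were lower without old replicate 2 and ICM replicate 3, as 8 ribosomal proteins, 5 splicing factors, 4 translation factors and 3 each of the chaperones, synthetases and proteasome subunits fell, while the median of all genes moved to -0.17. The chaperone was HSPB6, a small heat shock protein of muscle, at 636, 633 and 477 CPM in ICM and 141, 238 and 115 CPM in old (log2 change 2.01). Of 24 ATF4 targets 2 amino acid carriers, SLC1A5 (0.97) and SLC3A2 (0.72), rose and CHAC1 (-1.67), SLC1A4 (-1.65) and MTHFD1L (-1.94) fell.

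The share of all CDS footprints that a list took does not depend on the fit. Of 40 lists 23 had no overlap between the ICM and old libraries, 12 higher and 11 lower in ICM, beside 23.0% of single tested genes without overlap. A list pools the reads of many genes, and some genes are on several lists, so these shares are not a like comparison. NRF2 target enzymes took 4.28%, 4.34% and 3.12% of footprints in ICM and 1.09%, 1.49% and 1.14% in old, a ratio of means of 3.17. Actin and contractile proteins took 3.52%, 3.73% and 4.45% in ICM and 6.495%, 6.15% and 7.03% in old, a ratio of 0.595. In young the shares were 1.27% to 1.61% and 5.52% to 5.99%. Both lists thus separated ICM from old, and for both ICM also lay outside the young range. Plasminogen and coagulation genes took 0.734% ± 0.0377 in ICM, 1.33% ± 0.171 in old and 0.672% ± 0.0258 in young (SD, n = 3), so old stood apart there. The exact two-sided permutation test over 3 against 3 libraries cannot go below p = 0.10, which was reached by each of the 23 lists. With the 10 genes of most footprints taken out of the total, 21 lists did not overlap.

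**Figure D3:**
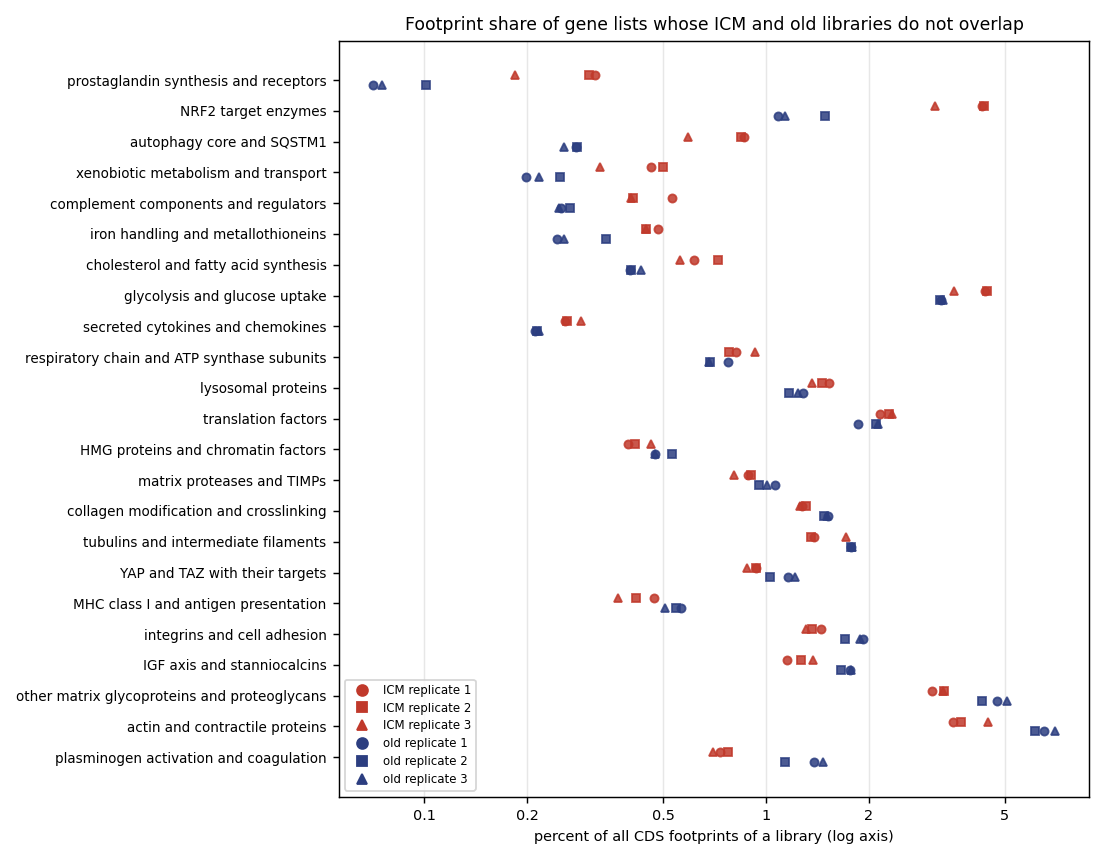
Percent of the CDS footprints of each library that lay in the genes of a list, on a log axis, for the 23 lists whose ICM (red) and old (blue) libraries did not overlap, in order of the ratio of means. NRF2 target enzymes run from 3.12% to 4.34% in ICM and 1.09% to 1.49% in old, and plasminogen activation and coagulation genes have the lowest ratio, 0.552.

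The matched mRNA-seq asked whether footprints moved with the message. In mRNA-seq 8338 of 13173 genes (63.3%) passed between ICM and old. Of 622 genes called in Ribo-seq and tested in both assays, 587 passed in mRNA-seq in the same direction, 251 higher and 336 lower, 33 did not pass there and 2 passed in the opposite direction. The sign was the same for 97.7% of called genes, beside 72.5% of all 4618 genes tested in both, of which 69.6% were called in mRNA-seq. The AKR1C genes together had 3502 ± 71.2 mRNA CPM in ICM and 17.7 ± 4.02 in old (SD, n = 3), and TAGLN a log2 change of -4.77 in mRNA and -3.88 in footprints. The 2 opposite genes were APC, with -0.27 in mRNA, and DDX54, an RNA helicase named for this count, with 0.23 in mRNA and -1.96 in footprints on 6 reads in ICM.

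**Figure D4:**
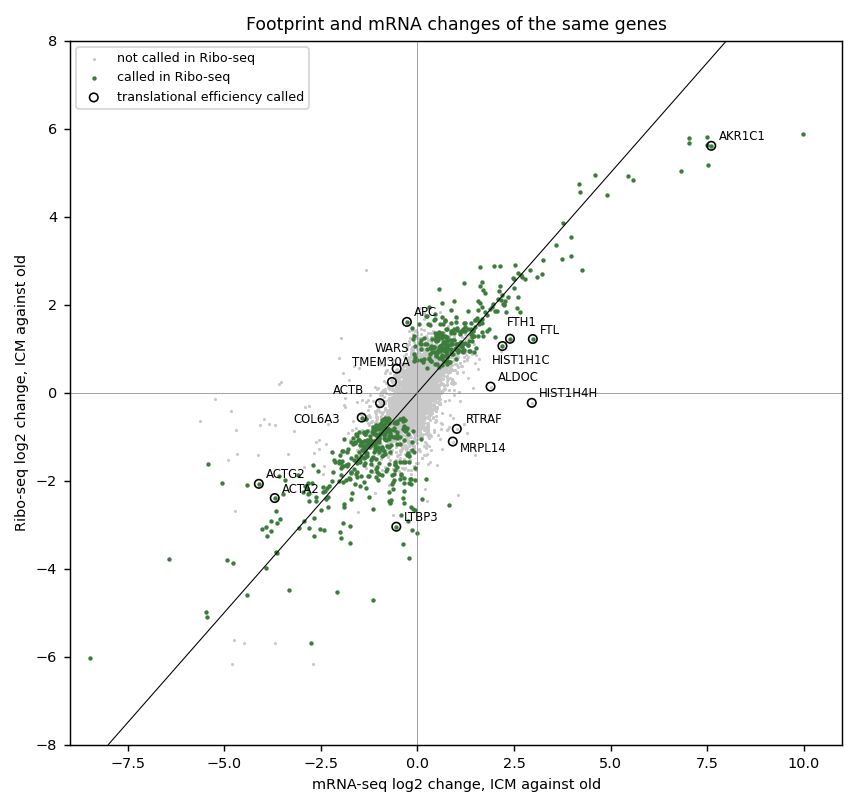
Log2 change between ICM and old in Ribo-seq (vertical) and mRNA-seq (horizontal) for the 4618 genes tested in both, with genes called in Ribo-seq in green and the 16 called in translational efficiency circled. The diagonal marks equal change, AKR1C1 lies below it at 7.60 in mRNA and 5.61 in footprints, and FTH1 and FTL lie below it with rises in both assays.

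Translational efficiency, the footprint level relative to the mRNA level of the same lysate, passed the test in 16 of 4618 genes (0.346%), 7 higher and 9 lower in ICM, and 513 genes had an unadjusted p under 0.05. DESeq2 called 6 genes, of which 3 were shared. The 3 largest rises were ACTG2, APC and ACTA2, and the 3 largest falls HIST1H4H, LTBP3 and AKR1C1. ACTG2, ACTA2 and AKR1C1 have near-identical kin and the division of shared reads is not stated, so each is uncertain as a single gene. Whether footprints of other actins were counted to ACTG2 and ACTA2 was not tested. ACTG2 had ratios of footprint to mRNA CPM of 5.67, 3.89 and 18.4 in ICM against 1.91, 1.57 and 2.14 in old (log2 change 2.00, SE 0.29, adjusted p = 0.000102). Its mRNA was at 67.4, 68.4 and 64.8 CPM in ICM and 1043, 1082 and 1052 CPM in old, so the ratio rose on a message that fell 4.11 on the log2 scale. ACTA2 had ratios of 2.59, 3.59 and 5.19 in ICM against 1.39, 1.09 and 1.60 in old. The ICM ratio of ACTG2 and of ACTA2 was highest in replicate 3, the library with raised levels of the 12 largest falls. Without old replicate 2 and ICM replicate 3 ACTA2 and APC lost their calls (adjusted p = 0.163 and 0.0956). ACTG2 kept its own (0.00791) at a log2 change of 1.17 in place of 2.00.

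Old replicate 2, which held raised levels of the 12 largest rises, had the highest AKR1C1 ratio. AKR1C1 had ratios of 1.30, 1.21 and 0.913 in ICM against 4.51, 39.1 and 2.06 in old. Its log2 change in efficiency of -2.11 (adjusted p = 0.0385) became -1.68 (0.00426) without old replicate 2 and -1.60 (0.00622) without that library and ICM replicate 3, so the call was kept in both. The call was lost, at changes of -2.36, -2.83 and -2.53, without old replicate 1 (adjusted p = 0.383), without old replicate 3 (0.0553) and with DESeq2 (adjusted p = 1.00). LTBP3 had 6 reads in ICM, all in replicate 1. HIST1H4H, a replication-dependent histone gene with near-identical copies, had ratios of 0.706, 2.73 and 2.98 in ICM against 15.7, 18 and 10.6 in old. Messages of such histone genes mostly lack a poly(A) tail and the mRNA libraries were poly(A)-selected, so their mRNA level was not measured as for other genes.

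Both ferritin subunits, named for their common control at the ribosome, were among the 9 genes with lower efficiency in ICM. They are shown with the loop of the iron-responsive element of their 5′ UTR, CAGTGN, in capitals. FTH1 holds it from base 45 of a 5′ UTR of 209 bases (GENCODE, GRCh37, chr11:61735045-61735074, minus strand) and FTL from base 39 of 199 (chr19:49468592-49468621, plus strand). The letters alone are common, since 662 of 4496 tested genes with a 5′ UTR (14.7%) hold them, at a median length of 116 bases.
FTH1: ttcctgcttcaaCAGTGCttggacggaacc
FTL: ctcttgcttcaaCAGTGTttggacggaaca

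Ferritin message rose more than ferritin footprints. FTH1, the heavy chain that oxidises iron, was at 13490, 14670 and 12600 CPM in the ICM mRNA libraries and 2294, 2456 and 2383 CPM in old, and at 800, 532 and 477 CPM in ICM footprints against 262, 275 and 243 CPM. The ratio was 0.0593, 0.0363 and 0.0378 in ICM and 0.114, 0.112 and 0.102 in old (log2 change -1.22, SE 0.23, adjusted p = 0.00472). For FTL, the light chain, the ratio was 0.0602, 0.0506 and 0.0671 in ICM and 0.157, 0.309 and 0.206 in old (log2 change -1.78, SE 0.26, adjusted p = 0.000102). The ICM and old ratios did not overlap for either gene. In young the FTL ratio was 0.158, 0.0388 and 0.0446. Only young replicate 1, the shallow library with raised levels of the 12 largest rises, lay in the old range. The other young FTL ratios lay below those of ICM. For FTH1 the young ratios were 0.0876, 0.0571 and 0.0469, all below those of old, and young replicates 2 and 3 lay in the ICM range. FTH1 lost its call without old replicate 1 (log2 change -1.17, adjusted p = 0.209) and with DESeq2 (-1.25, adjusted p = 0.0797), and FTL kept it under every alternative run. Other iron genes moved too, as 5 of 12 rose and 2 fell, with the transferrin receptor TFRC at 667, 887 and 563 CPM in ICM against 286, 495 and 353 CPM in old, and the metallothioneins MT2A and MT1G lower by 1.09 and 1.07 on the log2 scale. The call of MT1G was at the threshold (edgeR adjusted p = 0.0493) and held in 4 of 13 alternatives, and that of MT2A held in 10 of 14.

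The remaining called genes, named because they are few, were the tryptophanyl-tRNA synthetase WARS (1.05), COL6A3 (0.88), TMEM30A (0.87) and ACTB (0.73) with higher and HIST1H1C (-1.15), ALDOC (-1.81), RTRAF (-1.91) and MRPL14 (-2.05) with lower efficiency in ICM. RTRAF, a protein of RNA transcription and translation, had more mRNA in ICM (log2 change 1.02) and ratios of 0.161, 0.333 and 0.111 in ICM against 0.724, 1.25 and 0.648 in old. RTRAF kept its call without old replicate 2 and ICM replicate 3, as did HIST1H1C, ALDOC and MRPL14, while WARS, COL6A3, TMEM30A and ACTB lost theirs. None of these genes kept its call with DESeq2 or without old replicate 1 (for RTRAF adjusted p = 0.0807 and 0.0790). HIST1H1C is a replication-dependent histone gene too, so the limit on poly(A)-selected mRNA given for HIST1H4H holds for it.

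**Figure D5:**
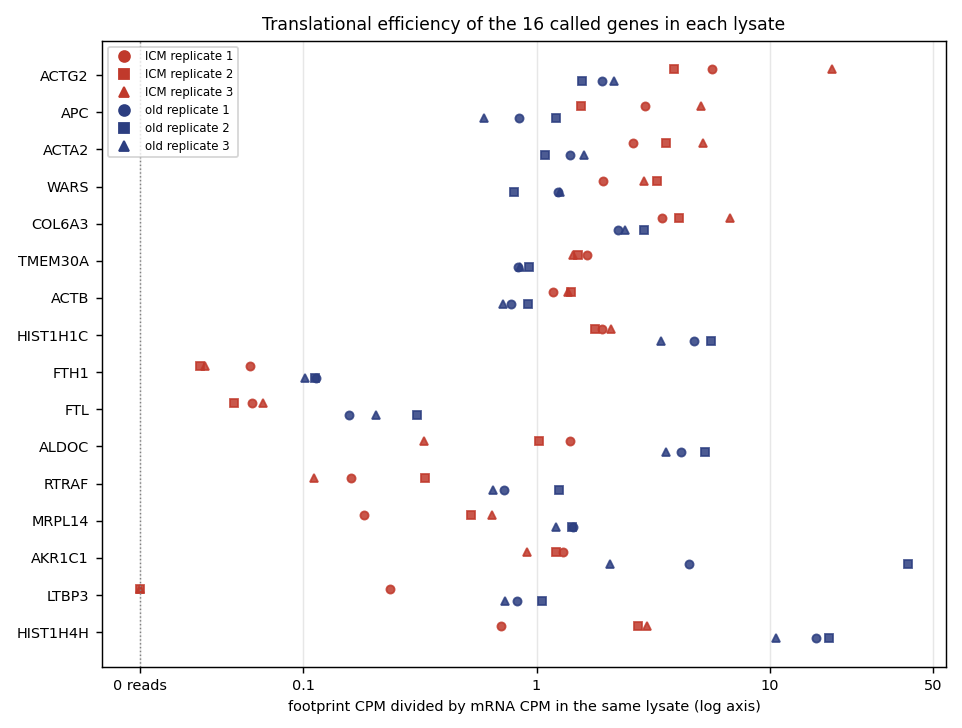
Footprint CPM divided by mRNA CPM in each lysate, on a log axis with libraries without a footprint at the dotted line, for the 16 genes called in translational efficiency. ICM is red and old blue, FTH1 and FTL lie at ratios from 0.0363 to 0.0671 in ICM and from 0.102 to 0.309 in old, and the old replicate 2 value of AKR1C1 is 39.1.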

How the data were processed

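Ribo-seq and mRNA-seq libraries were grouped by their titles. Per the study's methods, each cycloheximide-treated lysate served both assays, and mRNA was poly(A)-selected. The authors deposited estimated counts for each gene symbol and transcript region, not scaled to depth. The submitters' processing notes name STAR 2.6.0c, featureCounts and GRCh37, with no statement of how shared reads were divided. CDS values (for mRNA, UTR and CDS values summed) were rounded to whole counts. All 9 libraries of an assay were fitted with edgeR 4.0.16 (quasi-likelihood, TMM scaling, filterByExpr, two-sided), with the contrast ICM minus old and Benjamini-Hochberg adjusted p under 0.05 over all tested genes. Translational efficiency was the interaction of assay and condition over 18 libraries, with the lysate as a block. SE is on the log2 scale.

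The members and gene lists were chosen with earlier results of these data known. Named genes were the 12 largest rises and falls among called genes with at least 30 reads in the higher group and no overlap, up to 4 called members per list and direction, 5 fixed genes and 3 efficiency genes per direction. Pooled ratios carry exact 95% intervals, which cover counting error only. Alternatives (DESeq2 1.42.0, other scaling, filters, thresholds, thinning, left-out libraries) are given in the closing section. The code was tested on simulated data. Promoters were RefSeq windows, and 5′ UTRs came from GENCODE canonical transcripts. A few genes of the lists are not reported here.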

Additional observations from a re-analysis of the deposited data

How the results depend on the processing

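The count of 623 called footprint genes was 619 with RLE scaling, 341 with DESeq2, 801 of 13714 without a filter (34.3% of them higher, beside 43.2%), 593 with a mean of at least 20 reads, 437 with only the 6 ICM and old libraries, 1020 at an adjusted p under 0.15, 613 with an absolute log2 change over 0.6, and 193 of 1165 after thinning to the shallowest library. Leaving out 1 library gave 332 (old replicate 1) to 924 (ICM replicate 3), with 386 without old replicate 3. Leaving out old replicate 2 and ICM replicate 3 together gave 996, of which 32.9% were higher. No gene was called in opposite directions by these fits. The median of all genes moved from -0.02 to -0.17 in that last fit and to -0.38 without a filter.

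Same-numbered ICM and old libraries deviated together with r of 0.0185 to 0.0377, which gives no pairing, although each correlated best with its own number. With the replicate block 418 genes were called (168 higher, 250 lower), and 8398 in mRNA-seq beside 8338.

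The 16 translational efficiency genes became 60 without the lysate block and 6 with DESeq2. Leaving out 1 lysate gave 3 (old replicate 1) to 47 (ICM replicate 1), and leaving out old replicate 2 and ICM replicate 3 gave 31, 4 higher and 27 lower. The cause of these changes was not tested, beyond fewer samples and genes in some fits.

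Of 166 called named genes 91 kept the call in every alternative that gave a value, and 153 did without old replicate 2 and ICM replicate 3. HMGB1, at -0.15, was at 0.45 after thinning and between -0.45 and 0.21 when libraries were left out. HIST1H4H footprints, at -0.23, were at 0.0199 with DESeq2 and between -0.65 and 0.49 with libraries left out, and DARS, at 1.10, was between -0.70 and 1.41. Depth limited genes with few reads, above all in ICM replicate 3.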
